A study of Mus musculus with 2 samples.

Results

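The constitutive proteasome was examined in mouse bone marrow cells through its transcripts. Members were the probe sets (groups of short probes against 1 transcript) annotated to exactly 1 gene symbol that starts with Psma, Psmb, Psmc, Psmd, Psme, Psmf or Psmg followed by a number, without the inducible subunits Psmb8, Psmb9 and Psmb10. The rule took 99 of 45037 probe sets and 46 of 18193 genes. Of these genes, 44 encode subunits, regulators or assembly factors of the proteasome, with 96 probe sets. The other two, Psmc3ip and Psme3ip1, are not parts of the proteasome and are left out of every count below. The probe set of Psme2 was also annotated to Psme2b and is therefore not a member.

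RNA was measured on 2 Affymetrix arrays. Both groups were wild-type C57BL6J cells described as LSK Flt3-, the marrow fraction that lacks lineage antigens and surface Flt3 and carries Sca-1 and high c-Kit. Cells for the control array were transduced with GFP, and those for the other array with Satb1, the gene of a chromatin-organising protein. The arrays are called the GFP array and the Satb1 array after their labels. The cRNA was made from 250 ng of total RNA, and the sources used here do not name the vector, the time after transduction, the age of the mice or the number of animals behind each array. With n = 1 per group there was no replicate check, so no standard error or p-value is given and every difference compares these 2 arrays.

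The proteasome degrades proteins that carry ubiquitin chains. Its 20S core is a barrel of alpha rings, which gate the entrance, around beta rings, which hold the protease sites on Psmb5, Psmb6 and Psmb7. The 19S particle caps the barrel: the ATPases of its base unfold the substrate, and its lid removes the ubiquitin chain. Other caps open the core without ubiquitin, and dedicated chaperones assemble each part. Blood progenitors, like other growing cells, depend on this machine for the turnover of cell cycle regulators.

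The arrays shared 1 scale and differed in some cell type markers. Leaving out the extreme 2% of probe sets at either end, the mean intensity was 497 on both, which scaling to a common target sets and which is no check. The median over all probe sets was 64.9 on the GFP array and 58.6 on the Satb1 array. By its brightest probe set Satb1 itself read 909 on the Satb1 array against 1116 on the GFP array. Its other probe sets above the floor on at least 1 array were lower too, at 908 against 963.5, 165 against 288 and 30.5 against 81.4. Whether these probe sets read the transduced copy was not tested. The values therefore do not bear out the label, and all directions rest on the labels. Of the markers of the labelled fraction, Kit and Cd34 were above the floor on both arrays, and Ly6a was not analysed here. The label names cells without surface Flt3, yet Flt3 transcript was also above the floor, at 1390 on the GFP array and 1334 on the Satb1 array. Of 6 lineage antigen genes measured, 4 were below the floor on both arrays. Summed over each marker list, intensities on the GFP and Satb1 arrays were 53295 and 56371 for 11 granulocyte and monocyte genes, 13889.7 and 8245 for 5 basophil and mast cell genes, and 26073 and 29879.7 for 7 megakaryocyte and erythroid genes. A sum weighs the brightest probe sets most. Members of the granulocyte and monocyte list and of the basophil and mast cell list went both ways. In log2, Satb1 minus GFP, granulocyte and monocyte genes ran from -3.28 (Ms4a3) to 2.16 (Camp). Basophil and mast cell genes ran from -2.60 (Fcer1a) to 2.09 (Prg2). Prg2 was the only 1 of these 5 that was higher, and the other 4 were lower. Fcer1a read 65.4 on the Satb1 array, near the floor of 61.7. By at least 2-fold, 5 granulocyte and monocyte genes were higher and 2 lower. Of the basophil and mast cell genes, 1 was higher and 3 lower by as much. All 7 megakaryocyte and erythroid genes were higher by less. All 23 of these genes lay above the floor on each array, and no marker measured had an intensity of 0. The part of these cell types in the proteasome values was not tested. In RNA from many cells, fewer cells of a type and less RNA per cell cannot be told apart.

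Values are MAS5 intensities, on a linear scale, and each gene is given by its brightest probe set. A difference is log2 of the intensity on the Satb1 array minus log2 of that on the GFP array, after intensities under the floor of 61.7 (the median of all values) were set to it. The brightness of a probe set also depends on its probes, so intensities of different genes, or of different classes, do not rank their transcripts.

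Proteasome genes were among the bright genes of both arrays, and nearly all differed little between them. Above the floor on both arrays were 43 of the 44 genes, and 38 read at least 1000 on both. Measured against all genes, 39 stood in the brightest 25% on the GFP array (1032 and over) and 40 on the Satb1 array (1002 and over). The median intensity of the 44 was 4724 on the GFP array and 4969 on the Satb1 array. Psma5 and Psmd7 were higher on the Satb1 array by at least 25%, which is 4.55% of the 44, where 6.86% of all genes above the floor and 3.12% of those with a mean intensity of at least 1000 were. Lower by at least 20%, the same distance on the log scale, were 0 of the 44, where 12.9% of all genes above the floor and 4.59% of those with a mean of at least 1000 were that much lower. At 2-fold, 0 of the 44 were higher and 0 lower, beside 0.271% and 0.86% of all genes.

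Most differences were small and positive. On the Satb1 array, 33 of the 44 genes were higher by some amount, 10 were lower, and Psmb11 had no measured difference. That is 75% higher, beside 45.2% of all genes above the floor, of which 54.8% were lower. Genes as bright as these also leaned upward: among the 4616 genes with a mean intensity of at least 1000, 54.3% were higher and 45.7% lower, and among those from 5000 to 10000 it was 65.4%. Of the proteasome genes with a mean of at least 1000, 31 of 41 (75.6%) were higher. By intensity this was 3 of 7 from 1000 to 2000, where their median was -0.06, and 9 of 12 from 2000 to 5000. It was 15 of 18 from 5000 to 10000 and 4 of 4 over 10000. Over all genes of these bands, 48.6%, 57.1%, 65.4% and 54.8% were higher. The median difference of the 44 genes was 0.08, beside -0.02 for all genes above the floor and 0.02 for the genes with a mean of at least 1000. After quantile normalization, which moved the bright genes as a whole, the median of the 44 was 0.05 and 30 were higher.

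**Figure D1:**
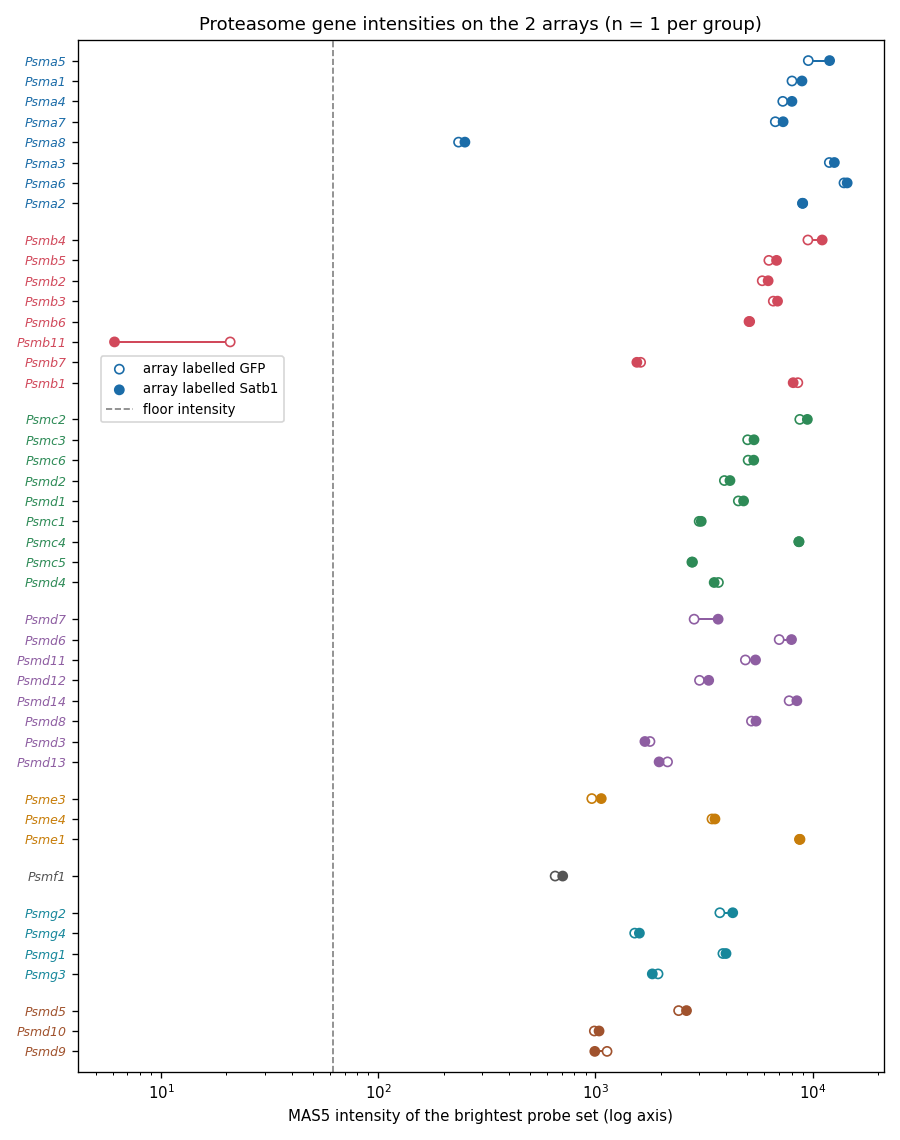
MAS5 intensity (x axis, logarithmic) of the brightest probe set of each of the 44 proteasome genes (y axis), with an open circle for the GFP array and a filled circle for the Satb1 array, 1 array each. Colours follow the classes (alpha ring, beta ring, base, lid, activators, inhibitor and both sets of chaperones, from the top), and the dashed line is the floor of 61.7. Most pairs overlap or nearly overlap, Psma5 and Psmd7 are the most separated above the floor, and Psmb11 alone lies under it.

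The differences of proteasome genes were also less spread than those of all genes. From 5000 to 10000 in mean intensity, the SD of the difference was 0.07 over 18 proteasome genes and 0.18 over all 618 genes. From 2000 to 5000 it was 0.13 over 12 proteasome genes and 0.19 over 1647 genes, and from 1000 to 2000 it was 0.12 over 7 and 0.21 over 2046. Over 10000 the SDs were close, 0.13 over 4 and 0.14 over 305. These SDs describe genes on a pair of arrays and are not errors of a mean. Outside the middle 95% of all genes of their own intensity band lay Psmd7 and Psma5, both above it. They were 1 of 12 proteasome genes from 2000 to 5000 and 1 of 4 over 10000. By construction that range leaves out the remaining share of all genes, so a few genes of any list of this size can lie outside it.

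**Figure D2:**
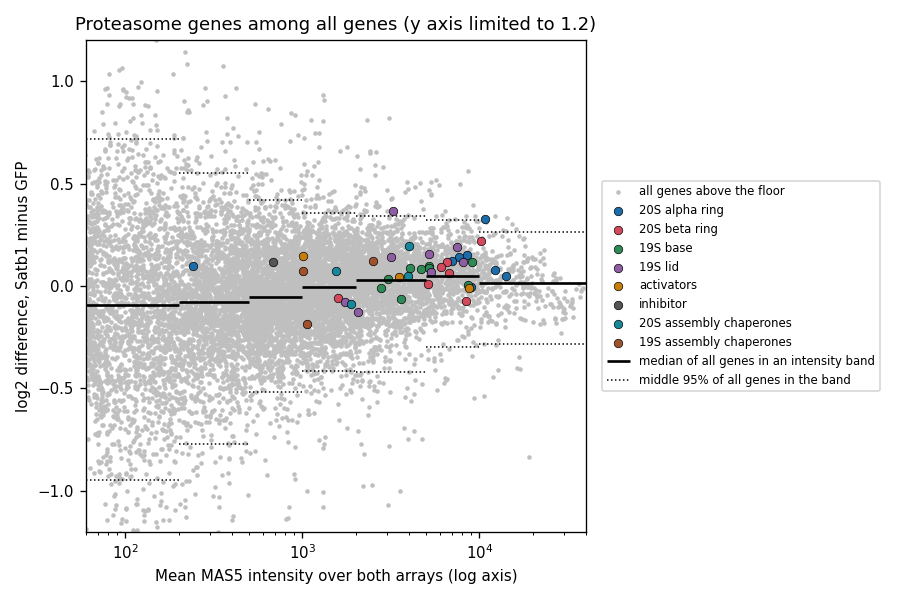
The log2 difference, Satb1 minus GFP (y axis, cut at 1.2 either way), of every gene above the floor (grey) against its mean MAS5 intensity (x axis, logarithmic), with proteasome genes coloured by class. Black bars give the median and dotted lines the middle 95% of all genes in 7 intensity bands. The medians run from -0.09 under 200 to 0.05 between 5000 and 10000, and the proteasome genes outside the dotted lines are Psmd7 and Psma5. By construction the dotted lines leave out some genes of every band.

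In the alpha ring of the core, 7 of 8 genes were higher on the Satb1 array and 1 was lower. The median difference was 0.11, and median intensities were 8516 and 8956 on the GFP and Satb1 arrays. Psma5 had the largest difference of the ring, at 11969.7 against 9549, a difference of 0.33 or 25.4%. A second bright probe set of Psma5 read 5919 against 5158, a difference of 0.20. Both bright probe sets of Psma5 were therefore higher, by different amounts. Its difference was 0.29 after quantile normalization, 0.30 after loess and 0.26 as the mean over its probe sets above the floor, each under 25%, and without probe sets that can match several transcripts it had none above the floor.

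The other alpha genes followed at smaller distances. Psma1 read 8929.5 against 8033 (0.15), Psma4 8028 against 7285 (0.14) and Psma7 7312 against 6730.3 (0.12). The other bright probe set of Psma7 read 5634 against 4824, a difference of 0.22. Dimmer Psma1 probe sets went both ways, at 338 against 365 (-0.11), 309 against 298.5 (0.05) and 108 against 71.5 (0.60). Psma3 read 12588.5 against 11933 (0.08) and Psma6 14421 against 13942 (0.05). A dimmer Psma3 probe set went the other way, at 326 against 418 (-0.36). The lowest difference was that of Psma2, at 8982 against 9000, which is -0.20%. Psma8, which encodes the testis form of the subunit that Psma7 encodes, was dim, at 250.5 against 234. The alpha subunits form the outer rings of the core.

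In the beta ring, 5 of 8 genes were higher, 2 were lower, and Psmb11 was below the floor. The median difference was 0.04, with median intensities of 6073 and 6529.9. The catalytic genes did not share a direction. Psmb5, of the chymotrypsin-like site, read 6821 against 6287 (0.12). Psmb6, of the caspase-like site, read 5129 against 5095 (0.01), a difference that was -0.02 after quantile normalization. Psmb7, of the trypsin-like site, read 1551 against 1614 (-0.06). In percent of the GFP array, the catalytic genes differed by 8.51% (Psmb5), 0.68% (Psmb6) and -3.93% (Psmb7).

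Of the beta genes without an active site, Psmb4 had the largest difference, at 11064 against 9509 (0.22), or 16.4%. Its other probe set read 10174 against 9204 (0.14), so both were higher. Psmb2 read 6239 against 5859.5 (0.09), and Psmb3 6892 against 6589 (0.06). Psmb1 had the lowest difference of the ring, at 8135 against 8547 (-0.07). A pair of dim Psmb1 probe sets were higher, at 150.2 against 118 and 137 against 123. Psmb11, the beta subunit of the thymoproteasome of cortical thymic epithelium, read 6.1 against 20.8, both under the floor. Its transcript was therefore not detectable above the floor on either array.

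In the base of the 19S particle, 7 of 9 genes were higher and 2 were lower, with a median difference of 0.08 and median intensities of 4547 and 4809. This class had the narrowest range of the 4 large ones, from -0.07 to 0.12. Its ATPases form a ring that pulls substrates into the core. Psmc2 was highest among them, at 9455 against 8725 (0.12). A second Psmc2 probe set read 6077 against 4845, a larger difference of 0.33. Psmc3 read 5369 against 5020.2 (0.10), Psmc6 5354.5 against 5045.5 (0.09) and Psmc1 3069 against 3002.5 (0.03). Psmc6 was also higher on its dimmer probe sets, at 2443 against 1935.5 (0.34) and 497 against 346 (0.52). Psmc4 and Psmc5 were nearly equal on the arrays. Psmc4 read 8655 against 8636, and Psmc5 read 2779.6 against 2797, which is -0.61%.

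The base subunits without ATPase activity went both ways. Psmd1 and Psmd2 encode the large scaffold proteins of the base, and Psmd2 protein also binds ubiquitin shuttle factors. Psmd1 read 4809 against 4547 (0.08), and Psmd2 read 4162 against 3922 (0.09). Psmd4, which encodes a ubiquitin receptor, read 3520.2 against 3683 (-0.07) and had the lowest difference of the base. Another bright Psmd4 probe set went the other way, at 2494 against 2381.5 (0.07).

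The lid held both the highest difference of all 44 genes and a pair of genes below the control array. Of 8 genes, 6 were higher and 2 lower, with a median difference of 0.13 and median intensities of 3957 and 4564. Psmd7, which encodes the partner that Psmd14 protein binds in the lid, read 3671 against 2846 (0.37), or 29.0%. A dimmer Psmd7 probe set went the other way, at 315 against 463 (-0.56). The call for Psmd7 therefore rests on its brightest probe set: the mean over its probe sets above the floor was -0.10.

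Psmd14, the gene of the lid's deubiquitinating enzyme, read 8459 against 7794 (0.12). The structural lid genes Psmd6 (7993 against 7013, 0.19), Psmd11 (5458 against 4900.5, 0.16) and Psmd12 (3322 against 3013, 0.14) were higher. A second bright Psmd6 probe set was nearly equal, at 6866 against 6803 (0.01). Psmd11 had 4 further probe sets above the floor, with differences from 0.00 to 0.32. Psmd8 read 5485 against 5227 (0.07). The lower lid genes were Psmd13, at 1964 against 2147.5 (-0.13), and Psmd3, at 1689 against 1782 (-0.08). A second bright Psmd13 probe set read 1087 against 1217 (-0.16), and a dimmer one read 451 against 648 (-0.52). The dimmest Psmd13 probe set was nearly equal, at 195 against 189.9 (0.04).

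**Figure D3:**
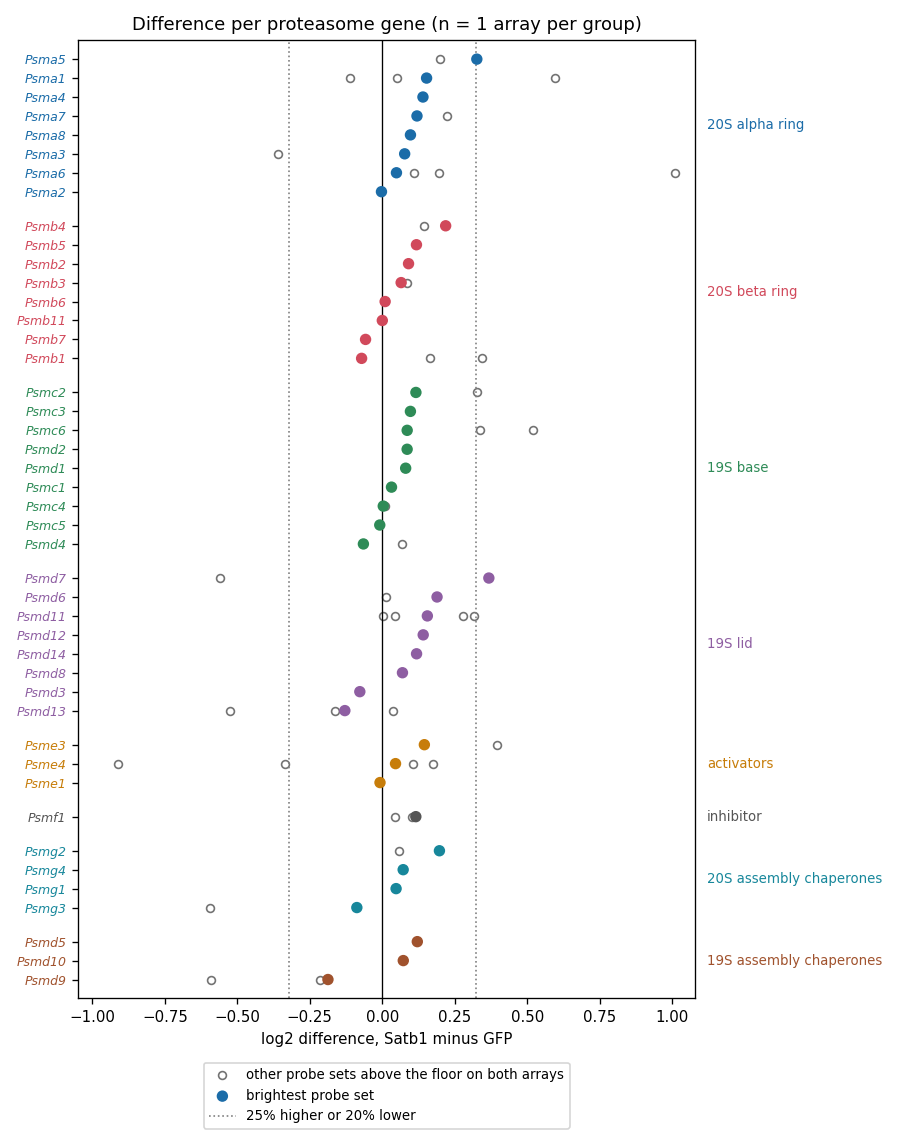
The log2 difference, Satb1 minus GFP (x axis), for each of the 44 proteasome genes (y axis), grouped and coloured by class, with 1 array per group. Filled points are the brightest probe set, open points the gene's other probe sets with both intensities above the floor, dotted lines mark 25% higher and 20% lower, and Psmb11, under the floor on both arrays, is drawn at 0. Filled points run from -0.19 (Psmd9) to 0.37 (Psmd7), while open points reach -0.91 (Psme4) and 1.01 (Psma6).

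Genes of the alternative caps differed little. Psme1 encodes a subunit of PA28, the interferon-inducible activator, and read 8697 against 8745, which is -0.55%. Psme3, the gene of the nuclear form of PA28, read 1063 against 962 (0.15), and its dimmer probe set read 448 against 340.5 (0.40). Psme4, the gene of the activator PA200, read 3549.7 against 3439 (0.05). The second bright Psme4 probe set read 2290.3 against 2127 (0.11), while a pair of dim ones were lower, at 79.9 against 150.3 (-0.91) and 66.7 against 84.1 (-0.33). The median of the 3 activator genes was 0.05, with median intensities of 3439 and 3549.7. Psmf1, the gene of the proteasome inhibitor PI31, read 706.5 against 652 (0.12).

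Chaperone genes had both small positive and small negative differences. Psmg1 and Psmg2 encode a heterodimer that starts the alpha ring, and read 3991 against 3862 (0.05) and 4286 against 3739 (0.20). The other bright Psmg2 probe set read 3911 against 3755 (0.06). Psmg3 and Psmg4 encode a second heterodimer and went in opposite directions, at 1827 against 1942 (-0.09) and 1593 against 1516 (0.07). The dim probe set of Psmg3 was also lower, at 189 against 285 (-0.60). For these 4 genes the median difference was 0.06, with median intensities of 2840.2 and 2909.

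The chaperones of the 19S base held the lowest difference of all 44 genes. Psmd9 read 993 against 1131 (-0.19), which is -12.2%. Its dimmer probe sets were lower too, at 145 against 168 (-0.21) and 70.1 against 106 (-0.59). Psmd5 read 2625 against 2415 (0.12), and Psmd10, which encodes gankyrin, read 1039 against 988 (0.07). The median of these 3 genes was 0.07, with median intensities of 1131 and 1039.

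Set side by side, the medians of core, base, lid and activators were 0.08, 0.08, 0.13 and 0.05. The core here is both rings together, with 12 of 16 genes higher, beside 7 of 9 for the base, 6 of 8 for the lid and 2 of 3 for the activators. The ranges overlapped throughout: -0.07 to 0.33 in the core, -0.07 to 0.12 in the base, -0.13 to 0.37 in the lid and -0.01 to 0.15 in the activators. The spread between probe sets of 1 proteasome gene was an SD of 0.28 over 60 probe sets of 22 genes, and 0.10 over 30 probe sets of 14 genes with a mean intensity of at least 1000. Class medians also moved with the processing: the lid's was 0.01 without probe sets that can match several transcripts, and the beta ring's was 0.01 after quantile normalization. Whether the classes differ was not tested. By level, the median intensity on the GFP array was 7008 in the core, 4547 in the base, 3957 in the lid and 3439 in the activators, and on the Satb1 array it was 7670.1, 4809, 4564 and 3549.7. The order was the same on both arrays, with the limit on comparing probe sets given above.

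**Figure D4:**
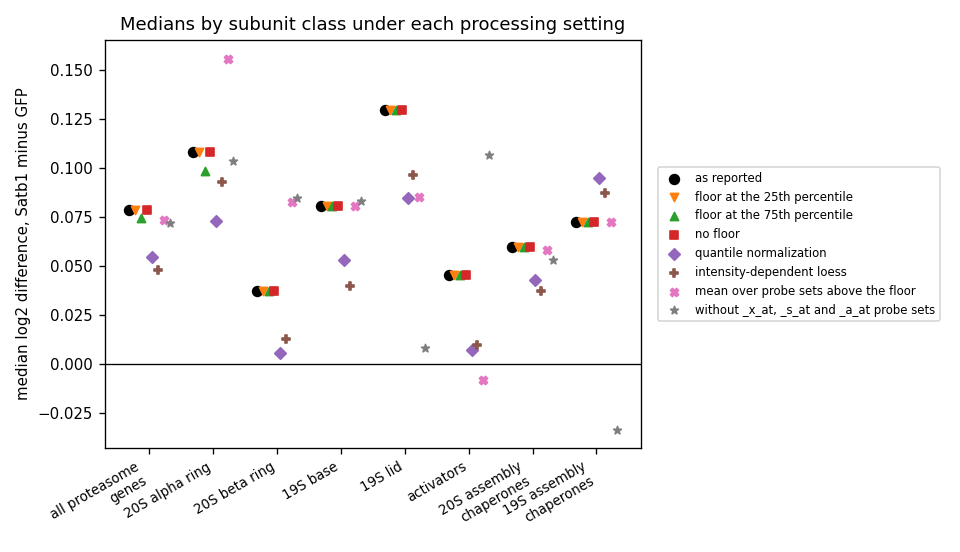
Median log2 difference, Satb1 minus GFP (y axis), of all 44 proteasome genes and of each class (x axis) as reported (black circles) and under 7 other processing settings. Points of the lid span 0.01 to 0.13 and those of the alpha ring 0.07 to 0.16, and negative medians appear for the activators and the 19S assembly chaperones under 1 setting each.

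Taken over probe sets of different genes, differences were more spread among dim proteasome probe sets than among bright ones. Of the 96 proteasome probe sets, 81 were above the floor on both arrays, 2 on 1 array and 13 on neither. Among the 57 with a mean intensity of at least 1000, 46 were higher and 11 lower, and the SD of their differences was 0.12. Among the 26 dimmer ones above the floor on at least 1 array, 15 were higher and 11 lower, with an SD of 0.43. At the level of probe sets, 9 of the 83 above the floor on at least 1 array were higher by at least 25% and 7 lower by at least 20%, beside 9.34% and 14.7% of all probe sets above the floor. The single probe set that was 2-fold apart was a dim one of Psma6, at 134.6 against 66.8 (1.01), while the bright ones of that gene differed by 0.05 and 0.11. Of 22 genes with several probe sets that passed the floor on each array, 15 had every such probe set on the same side of 0. Over all genes of the arrays, neither this share nor the share of bright probe sets that were higher was counted.

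Promoter sequences were set beside these values for the ends of the order. Of the 44 genes, 36 matched the RefSeq promoter table of GRCm38.p6 by symbol, with 38 promoters, and the 250 bases before each start were searched on both strands. The letters TGACNNNGC, the core of the antioxidant response element that the proteasome gene regulator Nfe2l1 binds, stood in 5 of 36 genes (Psmb5, Psmb6, Psmc6, Psmd9 and Psmd12), or 13.2% of the 38 promoters, beside 10.2% of all 32851 promoters of that length. The CCAAT box (CCAAT) stood in 13 of 36 genes, or 34.2% of promoters beside 33.8%, and the TATA box (TATAAA) in 3 of 36, or 7.89% beside 12.4%. Median GC content was 57.6% in the members and 52.4% in all promoters, with medians of 15 and 6 CpG sites. The promoters below are those of the members with the highest (Psma5, Psmb4) and lowest differences (Psmd9, Psmd13) among members with 1 promoter in the table, and that of Psmb5, a catalytic gene chosen because its promoter holds the antioxidant response element core. Each is 5′ to 3′ along the gene, with matches to the 3 motifs in capitals. The positions are chr3:108256676-108256925, plus strand for Psma5, chr3:94886959-94887208, minus strand for Psmb4, chr5:123227940-123228189, plus strand for Psmd9, chr7:140882144-140882393, plus strand for Psmd13 and chr14:54617996-54618245, minus strand for Psmb5.
Psma5: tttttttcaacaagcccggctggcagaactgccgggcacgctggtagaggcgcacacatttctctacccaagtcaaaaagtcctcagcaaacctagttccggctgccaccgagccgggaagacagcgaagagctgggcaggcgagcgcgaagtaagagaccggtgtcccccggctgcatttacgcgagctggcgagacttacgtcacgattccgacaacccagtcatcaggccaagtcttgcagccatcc
Psmb4: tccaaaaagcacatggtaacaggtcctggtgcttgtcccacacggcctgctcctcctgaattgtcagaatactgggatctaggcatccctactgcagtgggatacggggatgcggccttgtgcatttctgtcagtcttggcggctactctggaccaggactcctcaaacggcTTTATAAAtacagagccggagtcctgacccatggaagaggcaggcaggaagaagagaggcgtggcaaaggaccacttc
Psmd9: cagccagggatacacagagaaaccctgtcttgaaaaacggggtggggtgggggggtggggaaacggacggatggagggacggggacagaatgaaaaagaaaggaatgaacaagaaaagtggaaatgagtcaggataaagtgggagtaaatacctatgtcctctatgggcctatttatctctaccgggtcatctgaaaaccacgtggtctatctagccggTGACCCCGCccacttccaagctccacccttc
Psmd13: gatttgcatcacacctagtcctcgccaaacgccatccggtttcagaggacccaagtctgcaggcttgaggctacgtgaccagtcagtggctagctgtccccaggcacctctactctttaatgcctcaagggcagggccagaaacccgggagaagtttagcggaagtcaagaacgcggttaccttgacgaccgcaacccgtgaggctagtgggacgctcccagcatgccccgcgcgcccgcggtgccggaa
Psmb5: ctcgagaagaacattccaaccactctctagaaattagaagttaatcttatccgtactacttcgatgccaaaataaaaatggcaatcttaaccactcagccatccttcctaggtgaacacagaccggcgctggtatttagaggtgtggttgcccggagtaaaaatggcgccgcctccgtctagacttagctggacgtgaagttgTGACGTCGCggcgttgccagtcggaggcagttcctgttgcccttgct

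The capitals mark a TATA box, overlapping matches on both strands, in Psmb4, and the antioxidant response element core in Psmd9 (TGACCCCGC) and Psmb5 (TGACGTCGC). Psma5 and Psmd13, which lie near opposite ends of the differences, held none of the motifs in this window. The 5 genes with the antioxidant response element core differed by -0.19 (Psmd9), 0.01 (Psmb6), 0.09 (Psmc6), 0.12 (Psmb5) and 0.14 (Psmd12). Psmd7, which had the highest difference, was not among the genes matched to the promoter table. Whether these motifs go with the differences was not tested.

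The inducible subunits replace the catalytic ones in immune cells and after interferon. Psmb8, which replaces Psmb5 protein, read 7565 against 8340.4 (-0.14), Psmb9 read 3810 against 4084 (-0.10), and Psmb10 read 3623 against 3469 (0.06). The difference of Psmb8 minus that of Psmb5 was thus -0.26. It was -0.11 for Psmb9 minus Psmb6 and 0.12 for Psmb10 minus Psmb7.

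Genes that work with the proteasome were read from a list of 32, of which 23 were measured here. Of the 23, 17 read at least 1000 on both arrays, as did 4426 of all 18193 genes. By their brightest probe sets, none was higher by at least 25% or lower by at least 20%. Those shares were 6.86% and 12.9% of all genes above the floor, and 3.12% and 4.59% of genes with a mean intensity of at least 1000. By some amount, 15 of the 23 were higher and 8 lower, and their median was 0.05. Higher were 45.2% of all genes above the floor and 54.3% of those with a mean of at least 1000. Dimmer probe sets of some partner genes were past 25% higher or 20% lower. A dim Nfe2l2 probe set read 402 against 122 (1.73), where its brightest read 3338 against 3496 (-0.07). A dimmer Usp14 probe set read 476 against 644 (-0.44). Of 7 associated proteins, 4 were higher. The highest was Usp14, a deubiquitinase of the 19S particle, at 3801 against 3491 (0.12), and the lowest Ube3c, a ubiquitin ligase, at 717 against 777 (-0.12). Sem1, a small lid subunit without a Psm symbol, read 10017 against 9309.6 (0.11). Its other bright probe set went the other way, at 8247 against 8612 (-0.06). Of 5 regulators, 3 were higher. The highest was Zfand2a, a stress-induced proteasome-binding gene, at 637 against 519 (0.29), and the lowest Nfe2l1, at 783 against 881 (-0.17).

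Of 10 measured ubiquitin shuttle and unfoldase genes, 7 were higher and 3 lower. The highest was Ubqln2, which carries ubiquitylated proteins to the proteasome, at 5835 against 4793 (0.28). The lowest was Vcp, the gene of the p97 unfoldase, at 9249 against 10031 (-0.12). Of the ubiquitin and activation genes only Uba6, an E1 enzyme, was measured here, at 1503 against 1472 (0.03).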

How the data were processed

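RNA of 2 samples, 1 per group, was measured on Affymetrix arrays. The deposited values are MAS5 intensities on a linear scale, per the submitters' processing notes; the sources used here name no version or scaling target, and no genome build or detection call was used. The platform annotation gave 1 symbol to 34945 of 45037 probe sets, more than 1 to 932 and none to 9160; these were updated by Entrez ID through RefSeq (GRCm38.p6), which matched 34741. Each gene was taken by its brightest probe set (mean log2 intensity over both arrays). Intensities under 61.7 were set to that floor, and log2 differences were taken with no further normalization, in Python 3.11.15 with pandas 2.3.3 and statsmodels 0.14.6. The scripts were tested on simulated data. With 1 array per group no test was run, and the number of arrays limits precision. The alternatives were other floors, quantile and loess normalization, and other probe set rules. The comparison with genes of mean intensity 1000 and over was added after seeing the data. Members and lists were chosen with earlier results of these data known. All 44 proteasome genes are named under their class. Partner genes are named where they are the highest or lowest of their group. Sem1 and Nfe2l2 were named after their values were seen. Protein sequences were not used here.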

Additional observations from a re-analysis of the deposited data

How the results depend on the processing

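The 7 alternatives kept the median difference of all 44 proteasome genes positive, from 0.05 to 0.08, and 28 to 33 genes higher. It was 0.05 after quantile normalization and 0.05 after loess, when the bright genes no longer leaned upward (49.8% and 49.1% higher) and 30 proteasome genes were higher. Medians changed sign for the activators with the mean over probe sets (-0.0080) and for the 19S assembly chaperones without probe sets that can match several transcripts (-0.033), which left 39 genes. The count higher by at least 25% was 1 with quantile normalization (Psmd7), 1 with loess (Psmd7) and 1 with the mean over probe sets (Psma6), and 3 without probe sets that can match several transcripts (Psmc2, Psmc6 and Psmd7), in place of 2. The count lower by at least 20% was 1 with a 25th percentile floor and 1 with no floor (Psmb11), 2 with the mean over probe sets (Psmd9 and Psmg3) and 2 without probe sets that can match several transcripts (Psma3 and Psmd13), in place of 0. With no floor, 1 gene was lower by at least 2-fold, Psmb11, at intensities under the floor. Psmd7 changed sign with the mean over probe sets, at -0.10, as did Psma3 (-0.14), Psmb1 (0.15), Psmd4 (0.00) and Psme4 (-0.18), which had differed by less than 25%. Quantile normalization and loess each changed the sign of 3 genes, Psmb6, Psmc1 and Psmc4, and leaving out probe sets that can match several transcripts that of 2, Psma3 and Psmb1. Psma5 had no probe set above the floor once those that can match several transcripts were left out. The cause of these changes was not tested beyond the probe sets named. No paired analysis was possible because each group has 1 array. Differences of dim probe sets are limited by their signal over background.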

Other observations

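The probe set annotated to both Psme2 and Psme2b read 5315 against 4823, a difference of 0.14. Psme2 encodes the partner of Psme1 protein in PA28, and Psme1 itself differed by -0.55%. The genes that the symbol rule takes in without being part of the proteasome were nearly equal on the arrays. Psme3ip1 read 1724 against 1700.5 (0.02), and Psmc3ip, which encodes a meiotic recombination factor, read 1010.2 against 969 (0.06).

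Psmd9 and Psmg3, which both encode assembly chaperones, were lower by every probe set with both intensities above the floor, 3 for Psmd9 and 2 for Psmg3, and the dimmest probe set of each had the lowest value (-0.59 and -0.60). Psmc6 showed the opposite, with 3 of 3 probe sets higher and the dimmest furthest from 0 (0.52). Psma6 did as well, with 4 of 4 higher and the dimmest at 1.01. Neither trait was particular to these genes. Of 22 genes with several such probe sets, 15 had all of them on the same side of 0. The SD of the differences was 0.43 among dim proteasome probe sets and 0.12 among bright ones.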
